A study of Homo sapiens with 32 samples.

Results

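The genes described here are 48 genes of mitosis and the G2/M transition, taken from a list of symbols. The listing rule uses no measured value, but the list was drawn up with earlier results of these data known. All 48 were found among the 57820 genes counted in the HCT116 RNA files and the 11887 counted in the HEK293 files, and all passed the filter on low counts in each of the 16 comparisons tested. HCT116 is a human colorectal cancer cell line and HEK293 a human embryonic kidney line. The study deleted distal regulatory elements named E7, 18qE and 18qNE, asking how the transcriptome responds when such an element is lost. Every clone, controls included, came from cells given Cas9-GFP, sorted for high GFP and grown from single cells, and control cells received a gRNA vector without a guide. The HCT116 libraries came from 4 control clones and 1 E7 deletion clone, each extracted on days A, B and C, and from 18qNE deletion clones 1 and 3 on day A and clone 2 on day B. On day D, control clones 1 and 2 were extracted again with 2 18qE deletion clones. HEK293 gave 2 control clones and 2 E7 deletion libraries on day E, and the labels give both of those E7 libraries the same clone name. Days A to E are the labels' names for RNA extraction days, with no dates, and nothing says whether the days of 1 clone were separate cultures, so spread between days may be partly technical.

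Entry into mitosis is driven by the kinase CDK1 bound to cyclin B, which the CDC25 phosphatases switch on and which PLK1 and AURKA reinforce. Most transcripts of this programme accumulate in G2 and mitosis under B-MYB (MYBL2), FOXM1 and the DREAM complex, acting through promoter elements such as the cell cycle genes homology region (CHR) and CCAAT boxes. The proteins then condense chromosomes, build the spindle, check kinetochore attachment and, once CDC20 activates the anaphase promoting complex, are destroyed as the cell divides. In bulk RNA, fewer dividing cells and less of each transcript per cell cannot be told apart.

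Promoters of 5 mitotic entry genes are shown because they carry the elements named above and 4 of these genes, all but CDC25C, rose between extraction days A and B. The windows run from 250 bases before to 50 bases after the gene's start, 5′ to 3′ on the gene's strand, from RefSeq on GRCh38.p14; the count files were made on hg19. They lie at chr5:69166900-69167199 (plus strand), chr15:59104896-59105195 (plus strand), chr10:60778228-60778527 (plus strand), chr5:138331755-138332054 (minus strand) and chr16:23678639-23678938 (plus strand), in that order. RefSeq lists 2 starts for CDK1 and 4 for CDC25C, and the start furthest downstream was used for each. Capitals mark CHR cores (TTTGAA or TTCGAA) and CCAAT boxes (CCAAT) read on either strand.
CCNB1: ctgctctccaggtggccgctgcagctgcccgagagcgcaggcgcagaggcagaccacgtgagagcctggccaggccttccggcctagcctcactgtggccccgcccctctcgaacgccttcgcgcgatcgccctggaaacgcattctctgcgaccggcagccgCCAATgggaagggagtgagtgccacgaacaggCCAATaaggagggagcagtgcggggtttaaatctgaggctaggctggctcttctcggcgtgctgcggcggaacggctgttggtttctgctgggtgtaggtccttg
CCNB2: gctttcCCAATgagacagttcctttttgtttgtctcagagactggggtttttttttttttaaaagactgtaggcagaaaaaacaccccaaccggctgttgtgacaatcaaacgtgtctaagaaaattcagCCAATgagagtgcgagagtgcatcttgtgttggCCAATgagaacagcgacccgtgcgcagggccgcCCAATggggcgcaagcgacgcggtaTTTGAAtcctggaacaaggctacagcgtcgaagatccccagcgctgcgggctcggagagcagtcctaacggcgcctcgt
CDK1: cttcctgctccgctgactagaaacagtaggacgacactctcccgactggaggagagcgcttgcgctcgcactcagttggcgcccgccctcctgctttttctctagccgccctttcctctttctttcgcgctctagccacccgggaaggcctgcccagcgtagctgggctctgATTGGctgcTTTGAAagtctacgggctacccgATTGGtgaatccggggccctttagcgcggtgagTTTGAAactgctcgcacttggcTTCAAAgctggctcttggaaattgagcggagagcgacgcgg
CDC25C: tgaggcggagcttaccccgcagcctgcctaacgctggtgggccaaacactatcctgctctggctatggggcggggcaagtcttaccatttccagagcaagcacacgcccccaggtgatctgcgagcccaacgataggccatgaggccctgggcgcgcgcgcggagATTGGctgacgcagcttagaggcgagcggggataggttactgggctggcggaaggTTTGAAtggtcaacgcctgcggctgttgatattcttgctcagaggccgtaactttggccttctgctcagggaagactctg
PLK1: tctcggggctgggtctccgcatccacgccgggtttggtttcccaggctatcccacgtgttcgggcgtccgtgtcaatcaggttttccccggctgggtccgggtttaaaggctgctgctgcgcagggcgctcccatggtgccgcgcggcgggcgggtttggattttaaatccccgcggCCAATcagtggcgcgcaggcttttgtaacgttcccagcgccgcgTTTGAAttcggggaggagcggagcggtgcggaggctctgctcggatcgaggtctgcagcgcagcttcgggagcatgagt
In these windows, counting the start base as 0, a CHR core begins at -29 in CCNB2 and PLK1 and at -30 in CDC25C. CDK1 has 3 cores, beginning at -69, -13 and 9. CCNB1 holds 2 CCAAT boxes, at -87 and -55, and no CHR core in these letters. The RefSeq table held windows for 42 of the 48 genes. AURKA, FOXM1, TTK, BIRC5, TPX2 and UBE2C had none.

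Across those 42 genes, 33 (78.6%) held a CHR core in at least 1 listed window, against 19.5% of all 27305 genes with windows. A CCAAT box was found in 34 (81%), against 39.7%, and both elements in the same window in 27 (64.3%), against 7.85%. E2F-type sites (TTTCCCGC, TTTGGCGC or TTTCGCGC) were present in 3 (7.14%, against 3.3%) and E-boxes (CACGTG) in 7 (16.7%, against 8.77%). The 9 genes with windows but no CHR core were CCNA2, CCNB1, MYBL2, CENPE, AURKB, KIF20A, KIF2C, NCAPH and PTTG1. A match describes the letters only and is not a measured binding site.

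Summed gene counts per library lay between 9871667 and 14862268 in the 18 HCT116 libraries outside day D, between 22972412 and 24887785 in the 4 of day D and between 26491576 and 34790193 in the 4 of HEK293. Levels below are CPM, a gene's count scaled to its own library's total. The log2 changes come from edgeR's quasi-likelihood fit, given ± SE with Benjamini-Hochberg adjusted p over all genes tested (threshold 0.05). Epithelial EPCAM (274 to 388 CPM) and KRT8 (1837 to 3730 CPM) were high in every HCT116 library, while intestinal CDX1, CEACAM5, TFF3 and VIL1 stayed at or below 0.208 CPM. In HEK293, GATA3, taken from a list of 13 HEK293 markers of which the HEK293 files held 7, was at 20.8 to 29.8 CPM. EPCAM was at 76.5 to 228 CPM there. The HEK293 markers also summed to 152.7 to 183.5 CPM in the HCT116 control libraries, so the list was not specific to HEK293. Summed leukocyte markers reached at most 5.47 CPM, with PTPRC at or below 0.0673 CPM, and summed fibroblast markers at most 30.3 CPM, nearly all COL1A1, with COL1A2 at 0, in HCT116. HEK293 files listed none of the fibroblast or leukocyte markers, which were not used there.

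From day A to day B in the 4 control clones, 45 of the 48 rose and none fell (edgeR adjusted p below 0.05), where 38.5% of the 14988 genes tested were called in either direction and 19.1% as higher and 19.4% as lower. The median change of the 48 was 0.52 on the log2 scale, against -0.01 over all genes tested. PLK1, the polo kinase of mitotic entry and cytokinesis, rose most, by 0.91 ± 0.124 (adjusted p = 0.0001148). CDC25B was at -0.01, and CDC25C (0.27) and ASPM (0.30) did not pass. From day A to day C, 37 rose and none fell (32.2% of genes called, 15.6% as higher and 16.6% as lower), with a median of 0.43. Both comparisons use the same day A libraries. Between days B and C none was called, where 0.0334% of genes were (0.00667% higher, 0.0267% lower), and the median was -0.08. At an unadjusted p below 0.05 there were 11 of the 48 in that comparison, a count given without the share of all genes at that cut. DESeq2 called 2 as lower, CCNB1 (-0.47) among them, where it called 0.454% of all genes.

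**Figure D1:**
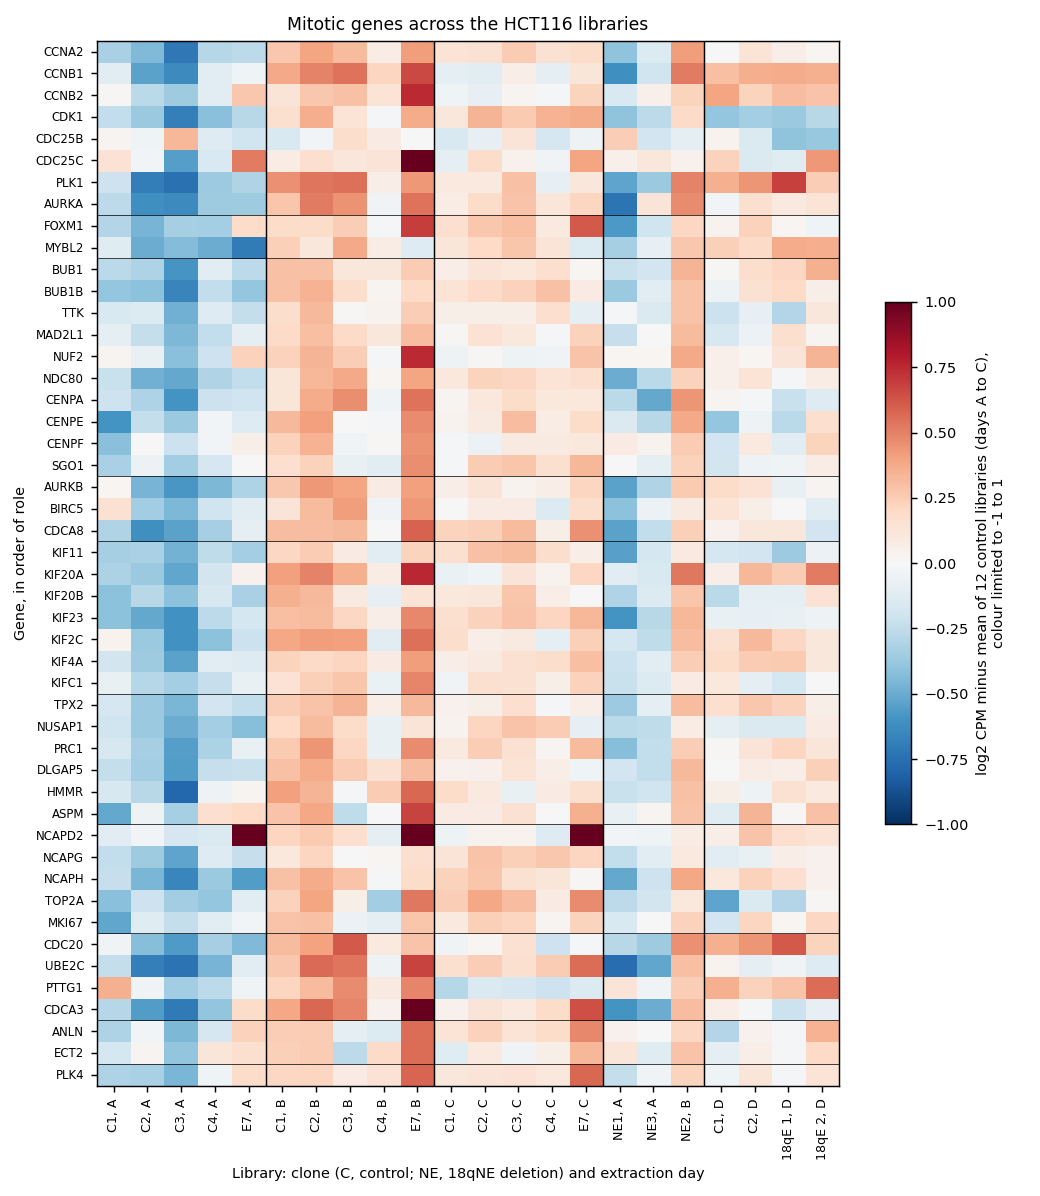
Log2 CPM of each of the 48 genes (rows, grouped by role) in each HCT116 library (columns, grouped by day) minus its mean over the 12 control libraries of days A to C, with colours limited to -1 and 1. The day A columns are mostly blue and the day B columns mostly red, NCAPD2 is red in all 3 E7 libraries, and the CDC25B row does not follow the others.

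Among the entry kinases and cyclins, cyclin B1 (CCNB1) was at 261, 201, 186 and 275 CPM in control clones 1 to 4 on day A, at 367, 399, 403 and 335 on day B and at 272, 264, 297 and 266 on day C. The 4 day B libraries were above all 4 day A libraries, and the day C libraries overlapped with day A. CCNB1 rose by 0.76 ± 0.119 from day A to B (adjusted p = 0.000267) and was 0.30 ± 0.118 above day A on day C, short of the threshold (adjusted p = 0.0682). CDK1, its kinase partner, was at 179.95, 171, 136 and 168 CPM on day A, at 238, 275, 230.2 and 215 on day B and at 237, 272, 257 and 275 on day C. Days B and C both lay wholly above day A, and CDK1 rose by 0.60 ± 0.0903 and 0.71 ± 0.0904 (adjusted p = 0.0002071 and 0.0001247). PLK1 was at 185, 137, 130.4 and 175 CPM on day A, 293, 310.4, 307 and 228 on day B, and 234, 230.0, 262 and 204 on day C. Clone 4 had the lowest PLK1 of day B, and no day B or C library fell into the day A range. AURKA, the kinase of centrosome maturation, was at 103, 83.8, 81.2 and 102 CPM on day A and at 149.7, 178, 165 and 123 on day B, a rise of 0.78 ± 0.116 (adjusted p = 0.0001925). CCNA2, cyclin A2, rose by 0.72 ± 0.0973 and CCNB2, cyclin B2, by 0.40. In this role 6 of 8 genes rose from day A to B.

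The proliferation factor FOXM1 was at 132, 121, 132 and 135 CPM on day A, at 184, 185, 189 and 164 on day B and at 186, 197, 199.6 and 175 on day C. It rose by 0.52 ± 0.0727 and 0.58 ± 0.0728 (adjusted p = 0.0001317 and 0.000116), with no overlap between day A and either later day. MYBL2, the other transcription factor of the list, rose by 0.60 ± 0.0813 and 0.59 ± 0.0814.

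All 10 kinetochore and spindle checkpoint genes rose from day A to B, with changes from 0.30 (SGO1, a protector of centromeric cohesion) to 0.65 (BUB1B, the checkpoint protein BubR1). All 7 kinesins rose, from 0.39 (KIFC1) to 0.70 (KIF20A). KIF23, a motor of the central spindle, had the smallest adjusted p of the 48, with 138, 133, 124 and 161 CPM on day A against 226, 229, 207 and 196 on day B. Its rise was 0.68 ± 0.0865 (adjusted p = 7.699e-05), and the days did not overlap. The 3 chromosomal passenger genes rose: CDCA8 (borealin) by 0.69 ± 0.0931, AURKB by 0.68 and BIRC5 (survivin) by 0.43. Of the spindle proteins, 5 of 6 rose. DLGAP5, which stabilises kinetochore fibres, went from 125, 121, 103 and 133 CPM to 181.7, 192, 173 and 168, a rise of 0.63 ± 0.0816 (adjusted p = 8.845e-05).

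The 4 genes of the ubiquitin ligase arm (UBE2C, CDC20, CDCA3 and PTTG1) had the highest median of the roles with 3 or more genes, at 0.79. UBE2C, the ubiquitin-conjugating enzyme of the anaphase promoting complex, was at 119, 90.9, 86.8 and 108 CPM on day A and at 170.1, 210.0, 200.4 and 139.5 on day B, a rise of 0.88 ± 0.128 (adjusted p = 0.0001721). CDC20, the activator of that complex, was at 377, 298, 269 and 325 CPM on day A, 482, 513, 579.7 and 422.5 on day B, and 388, 397, 432 and 340.1 on day C. CDC20 rose by 0.70 ± 0.112 to day B and by 0.33 ± 0.112 to day C (adjusted p = 0.0003185 and 0.0342), and the day C range overlapped with day A. The day C rise of CDC20 did not pass without control clone 2 (adjusted p = 0.209) or 3 (0.141). CDCA3, which triggers mitotic entry through degradation of WEE1, rose by 0.88 ± 0.112 (adjusted p = 7.873e-05). The separase inhibitor PTTG1 rose by 0.35.

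The 5 genes of chromosome structure all rose, with a median of 0.41. TOP2A, which untangles sister chromatids, was at 284, 342, 307 and 307 CPM on day A, 446, 503, 388 and 306 on day B and 462, 503, 472 and 407 on day C. In clone 4 its day B value was not above day A, and all day C libraries lay above all day A libraries. It rose by 0.44 ± 0.0886 and 0.61 ± 0.0886 (adjusted p = 0.001479 and 0.0002686). The proliferation marker MKI67 was at 704, 965, 879.7 and 989.6 CPM on day A, 1236, 1245, 952 and 969.7 on day B, and 1111, 1207, 1177 and 1043 on day C. Its rise of 0.37 ± 0.103 to day B (adjusted p = 0.01132) came with overlapping days: the day B values of clones 3 and 4 lay below the highest day A value. It did not pass without control clone 2 (0.34, adjusted p = 0.0975). NCAPH, a condensin subunit, rose by 0.68 ± 0.0897, NCAPG by 0.41 and NCAPD2 by 0.26.

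The day difference varied in size from clone to clone. The median over the 48 genes of day B minus day A was 0.48 in clone 1, 0.63 in clone 2, 0.76 in clone 3 and 0.26 in clone 4, and 0.55 in the E7 clone. Day B exceeded day A for 44, 47, 47 and 41 of the 48 genes in clones 1 to 4 and for 48 in the E7 clone. The mean over the 48 genes, as a log2 difference from the 12 control libraries, was -0.20, -0.31, -0.48 and -0.22 on day A in clones 1 to 4, 0.24, 0.33, 0.22 and 0.02 on day B, and 0.06, 0.13, 0.16 and 0.07 on day C. Clone 3 was lowest on day A and clone 4 lowest on day B, and every day A library was below every day B and day C library. Without control clone 2 the number that rose from day A to B was 34 (18.3% of all genes called in either direction), and with the other clones left out in turn it was 41 to 45 (25.4% to 42.9%). Clone 1 on day A stood apart from the other 3 day A libraries in some genes, at 0.701 of their mean CPM for ASPM, 0.732 for CENPE, 0.745 for MKI67, 0.759 for CENPF and 1.42 for PTTG1. Without clone 1 the number was 43.

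**Figure D2:**
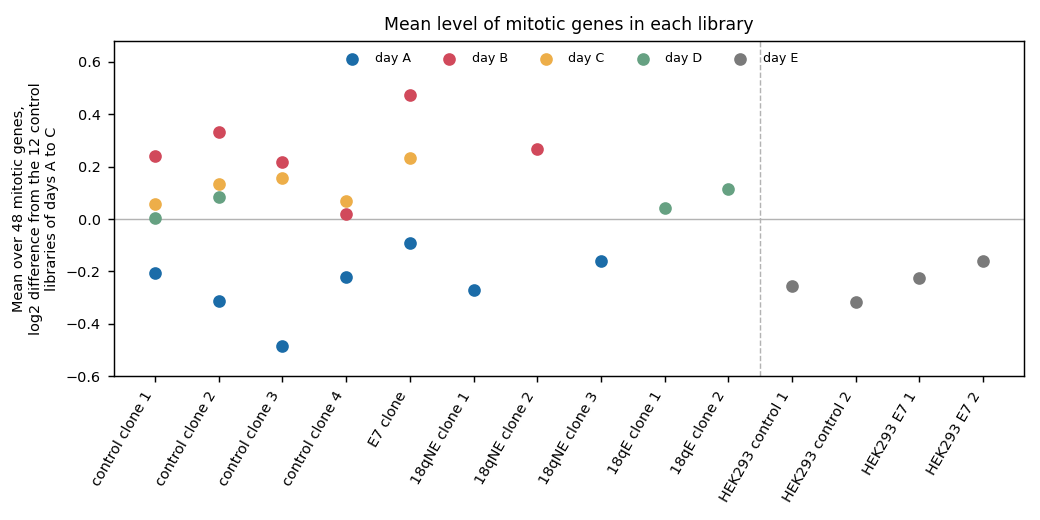
Mean over the 48 genes of log2 CPM minus each gene's mean over the 12 HCT116 control libraries of days A to C (y axis), one point per library, coloured by extraction day; HEK293 libraries, right of the dashed line, were scaled over the 11887 shared genes. Day A points lie lowest in every HCT116 clone, and the E7 point lies above the 4 control points of its day in all 3 cases.

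Other lists are read against the same 19.1% of all genes called higher and 19.4% called lower from day A to B. Of 34 further kinetochore and checkpoint genes 26 rose from day A to B and none fell (SKA3 by 0.71, HJURP by 0.72), and of 29 further G2/M and DREAM regulators 20 rose and 1 fell (CCNF by 0.69, GTSE1 by 0.72). The anaphase promoting complex list had 10 higher and 1 lower of 17, and cohesin and condensin 10 higher and 0 lower of 16, among them ESPL1, separase, at 0.76. Of 47 tested G1/S and replication genes 32 rose and none fell, with a median of 0.31 (RRM2 by 0.64). CDK inhibitors and arrest genes went the other way: 0 of 15 rose and 9 fell, with a median of -0.39, and CCNG2 fell by 1.83, CDKN1C by 1.17, BTG2 by 1.11 and CDKN1A, the inhibitor p21, by 0.95. Of 15 housekeeping genes 3 rose and 1 fell. The sum of the 14 epithelial markers was 3838 to 4648 CPM in the 4 control clones on day A and 4717 to 5527 CPM on day B, without overlap, with 1 higher and 2 lower of the 7 tested. Day totals overlapped, with 10724569 to 14445320 gene counts on day A and 11777829 to 13332131 on day B. Their part in the mitotic changes was not tested.

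Genes with the promoter elements outside the list were set beside these values. Among tested genes with a single listed start, 35 of the 48 had a window. All but 1 of the 23 with both elements rose from day A to B (median 0.50), as did the 5 with a CHR core alone (0.41), the 4 with a CCAAT box alone (0.71) and the 3 with neither (0.60). Of 342 other genes with both elements 117 rose (34.2%) and 44 fell, with a median of 0.09. Of 4355 other genes with neither element 890 rose (20.4%) and 837 fell, with a median of -0.01. These are counts over genes, without a test.

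Across the 12 control libraries the median Pearson correlation between pairs of the 48 genes was 0.81, and 1080 of 1128 pairs were positive. After subtraction of each day's mean the median was 0.59. The libraries share clones and days, so these values are descriptions without a p. CCNA2 and NCAPH followed the others most closely, each with a median correlation of 0.92. CDC25B, a phosphatase that starts CDK1 activation at the centrosome, was the exception, with a median of -0.30. Its control values ran from 226 to 325 CPM with the highest in clone 3 on day A. Within days, CENPF (0.14), ASPM (0.14), MKI67 (0.18), ECT2 (0.24) and CENPE (0.26) followed the others least among the positive ones.

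Between control clones, with day as a term, 0 of the 48 were called in clones 1, 2 and 4 and 3 in clone 3. Over all genes edgeR called 0.941% in clone 1 (0.44% higher, 0.5% lower), 1.23% in clone 2 (0.861% and 0.374%), 7.52% in clone 3 (4.35% and 3.17%) and 5.22% in clone 4 (2.72% and 2.5%). At an unadjusted p below 0.05 there were 2, 2 and 3 of the 48 in clones 1, 2 and 4, given without the share of all genes at that cut. The replicates here are days of 1 clone. In clone 3 HMMR, a spindle-associated hyaluronan receptor, was at 61.9, 101 and 99.1 CPM on days A to C, against 89.1 to 106, 127 to 138 and 112 to 122 in the other clones. It was below all of them on each day and lower by 0.38 on average (-0.38 ± 0.0844, adjusted p = 0.0119). CDC25B in clone 3 was at 325, 279.6 and 276 CPM, above the other clones on each day (at most 256, 272 and 240.4), with a change of 0.30 ± 0.0666 (adjusted p = 0.0122). ECT2, the exchange factor for RhoA at the cleavage furrow, was at 142, 148 and 177 CPM in clone 3 and overlapped with the other clones on day C (-0.29 ± 0.082, adjusted p = 0.0407). DESeq2 called 1 in clone 4, TOP2A (5.04% of all genes called), and 0 in clones 1 and 2 (1.31% and 1.29%). None of the 3 clone 3 calls remained without day C or without the day term. Without day A, clone 4 had 11 lower calls, in a fit that called 8.56% of all genes in either direction, among them PLK1 (-0.36), TOP2A (-0.41), CDC20 (-0.32) and AURKA (-0.27). TOP2A was at -0.28 ± 0.0847 in clone 4 with all days (adjusted p = 0.0746).

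On day D, extracted separately and sequenced deeper, control clones 1 and 2 could be set against their own days A to C. Of the 48 genes 2 fell and none rose, where 6.12% of 14782 genes were called (3.12% higher, 3% lower). CDK1 was at 155 and 158 CPM on day D, below each clone's own day A to C values (179.95 to 238 in clone 1, 171 to 275 in clone 2), and fell by 0.45 (-0.45 ± 0.0913, adjusted p = 0.0169). TOP2A was at 251 and 323 CPM against 284 to 462 and 342 to 503, and fell by 0.47 (-0.47 ± 0.0865, adjusted p = 0.0122). CDC20 (0.33 ± 0.0991), PLK1 (0.32 ± 0.106) and CCNB1 (0.29 ± 0.102) were on the other side without passing (adjusted p = 0.0711, 0.0949 and 0.106). AURKA, FOXM1 and MKI67 were at 0.00, 0.10 and -0.07. The count turned with the day used as reference: day D had 17 higher and 0 lower calls against day A alone (14.4% of all genes called), 0 and 8 against day B (4.37%), and 2 and 5 against day C (7.86%). Neither call held against day A alone, where CDK1 was at -0.07 (adjusted p = 0.823) and TOP2A at -0.04 (adjusted p = 0.903).

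In the E7 clone of HCT116, 13 of the 48 genes were higher than in the 4 control clones, with days summed per clone, and none was lower. The edgeR test called 13.9% of the 17664 genes tested in either direction, 7.58% as higher and 6.32% as lower. DESeq2 called 15 of the 48 as higher and 1 as lower, where it called 17.5% of all genes. The median over the 48 was 0.19 against -0.01 over all genes, and 39 had a positive sign. At an unadjusted p below 0.05 there were 23, a count given without the share of all genes at that cut. NCAPD2 stood apart at 1.44 ± 0.0835 (adjusted p = 0.0001533), and the other 12 lay between 0.26 and 0.70. The E7 group is 1 clone, so its spread is assumed to be that of the control clones, and what is due to the deletion and what to the clone cannot be told apart. This number of calls changed with the libraries used: 26 higher without the E7 library of day A, 5 higher and 1 lower without that of day B, and 11 and 1 without that of day C, fits in which the 2 groups no longer share the same days and which called 14% to 14.6% of all genes. Leaving a day out of both groups gave 8, 4 and 9 higher for days A, B and C (10.3% to 11.5% of all genes called), and leaving out control clones 1 to 4 in turn gave 8, 11, 12 and 11 (8.37% to 17.5%).

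**Figure D3:**
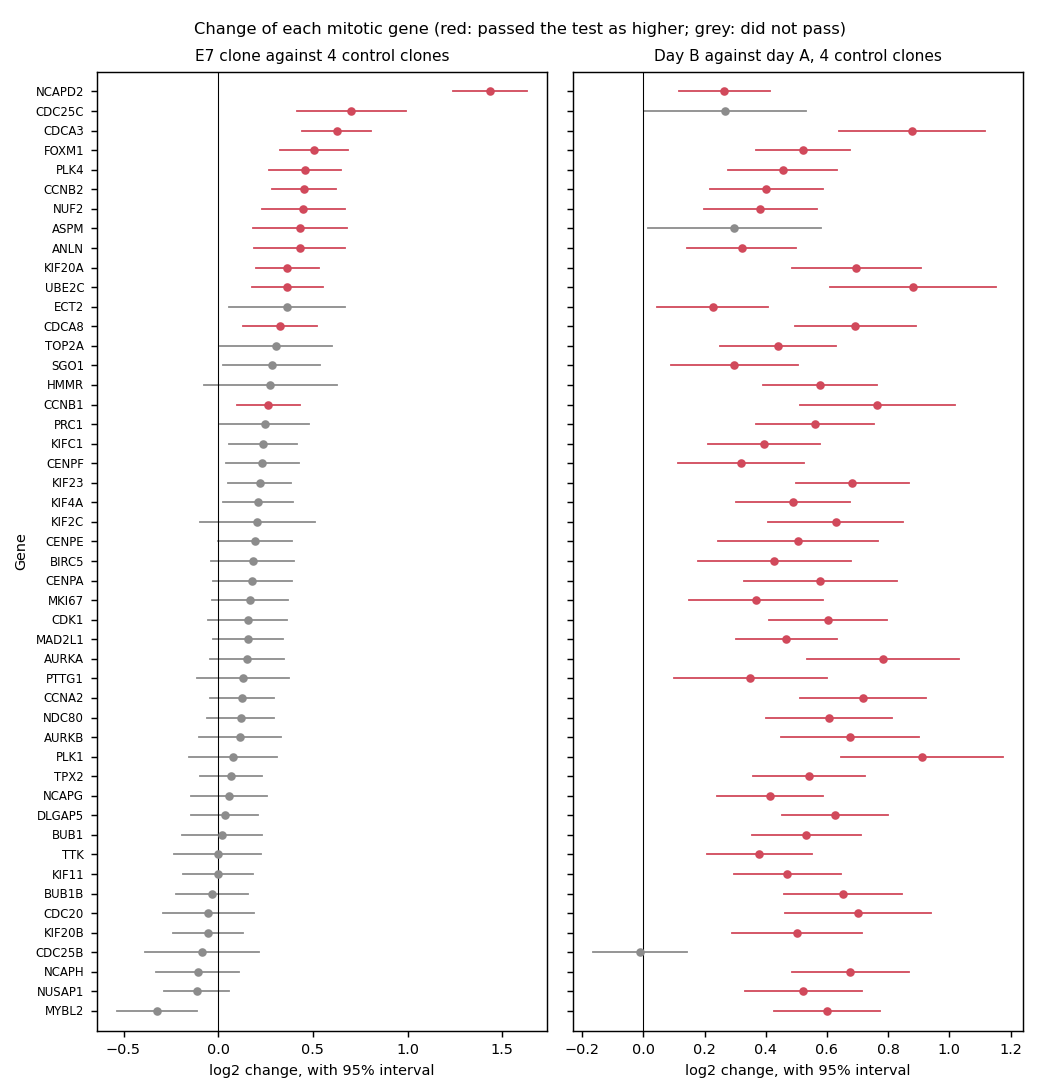
Log2 change of each of the 48 genes with its 95% interval in the E7 clone against 4 control clones (left) and on day B against day A in the 4 control clones (right), genes ordered by the E7 change. Red points passed the edgeR test as higher; 13 do on the left, led by NCAPD2 at 1.44, and 45 on the right.

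NCAPD2, a non-SMC subunit of condensin I, was at 636, 751 and 634 CPM in the E7 clone on days A, B and C. The control clones were at 227 to 253, 237 to 299 and 230.2 to 257 CPM on those days, so every E7 library was above every control library of days A to C. It was called in each of the 18 alternative fits run, at 1.34 to 1.5. CDCA3 was at 73.1, 125 and 95.5 CPM, against 38.6 to 50.3, 64.8 to 91.8 and 64.9 to 70.8 in the controls, and was higher by 0.63 ± 0.0787 (adjusted p = 0.002775). FOXM1 was at 193, 261 and 246 CPM, against 121 to 135, 164 to 189 and 175 to 199.6, and was higher by 0.51 ± 0.0777 (adjusted p = 0.00606). Both were above all controls of the same day on all 3 days. These 3 genes lie on chromosome 12 between KDM5A and AMN1 in RefSeq gene order, a stretch where 115 of 212 tested genes were higher and 2 lower in this clone, with a median of 0.58. Its bounds were taken from earlier results of these data. Among those 212 genes ordered by change NCAPD2 was at rank 30, CDCA3 at 94 and FOXM1 at 119. Of the 45 mitotic genes elsewhere, 10 were higher and none lower, with a median of 0.18.

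Of these 10, cyclin B2 (CCNB2) was at 120.3, 159 and 111 CPM in the E7 clone, against 76.1 to 96.0, 104 to 115 and 90.8 to 97.4 in the controls, and was higher by 0.45 ± 0.0726 (adjusted p = 0.007203). CDC25C, the phosphatase that activates CDK1 at mitotic entry, was at 19.98, 27.2 and 17.3 CPM, against 9.22 to 14.7, 13.95 to 14.9 and 12.7 to 15.2, and was higher by 0.70 ± 0.123 (adjusted p = 0.01016). PLK4, which drives centriole duplication, was at 75.8, 95.1 and 94.1 CPM, against 47.6 to 65.2, 66.1 to 73.8 and 69.1 to 70.7, and was higher by 0.46 ± 0.0824 (adjusted p = 0.01113). CDC25C, PLK4, NCAPD2 and the actin-binding furrow protein ANLN (0.43 ± 0.104) were the 4 genes whose 3 E7 libraries all lay above all 12 control libraries. That is 4 of 48 where 8.93% of expressed genes did so. The other calls were KIF20A at 0.37, the kinetochore subunit NUF2 at 0.45, UBE2C at 0.37, the spindle pole protein ASPM at 0.43, CDCA8 at 0.33 and CCNB1 at 0.26. CCNB2 did not pass without the E7 library of day B (0.27, adjusted p = 0.0504), and neither did KIF20A, NUF2, UBE2C, ANLN, ASPM, CDCA8 or CCNB1 (0.02, adjusted p = 0.889). In that fit the controls keep day B, so the groups differ in their days. With day B left out of both groups, CCNB2 was at 0.371, KIF20A at 0.301, CDCA8 at 0.286 and CCNB1 at 0.245. There too none of the genes just named passed, and CDC25C (0.537) did not.

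CCNB1 sat at the threshold (adjusted p = 0.0499). Its E7 libraries were at 287, 445 and 305 CPM, against 186 to 275, 335 to 403 and 264 to 297, above all same-day controls on each day. It did not pass in 14 of 18 alternative fits. TOP2A was at 371, 547 and 526 CPM, against 284 to 342, 306 to 503 and 407 to 503, also above all same-day controls, at 0.31 ± 0.127 (adjusted p = 0.156). MKI67 at 1043, 1229 and 1176 CPM (0.17 ± 0.087), CDK1 at 184, 276 and 275 CPM (0.16 ± 0.0897) and AURKA at 101, 179 and 142 CPM (0.15 ± 0.0834) did not pass. PLK1 was at 181, 287 and 229.9 CPM and CDC20 at 298, 470.0 and 380.2 CPM, inside the control range on every day. Their intervals, -0.16 to 0.31 for PLK1 and -0.29 to 0.19 for CDC20, leave out a change as large as that of CDCA3. MYBL2 was the lowest of the 48 at -0.32 (adjusted p = 0.0542), with 124, 175 and 174 CPM against 142 to 177, 207 to 245 and 213 to 235, below all same-day controls on all 3 days.

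Day by day, 20 of the 48 genes were above all 4 same-day controls on all 3 days (41.7%), against 16.6% of 13594 expressed genes, and 1 was below on all 3 (2.08%, against 15.8%). With 1 E7 library against 4 controls of its day, edgeR called 1 higher on day A (4.31% of all genes called in either direction), 4 on day B (6.51%), and 8 higher and 1 lower on day C (13.4%). Tested against the controls' own difference between days, that of the E7 clone gave no call: no gene of the 48 passed for day B or day C against A (0% of 15767 genes called; 0 of the 48 at an unadjusted p below 0.05, and 0 by DESeq2, for either day). For PLK1 the interval of that difference, day B against A, was -0.77 to 0.38. Against the 18qNE libraries instead of the controls only NCAPD2 passed, in a fit with 0.521% of genes called, and the median was 0.24.

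**Figure D4:**
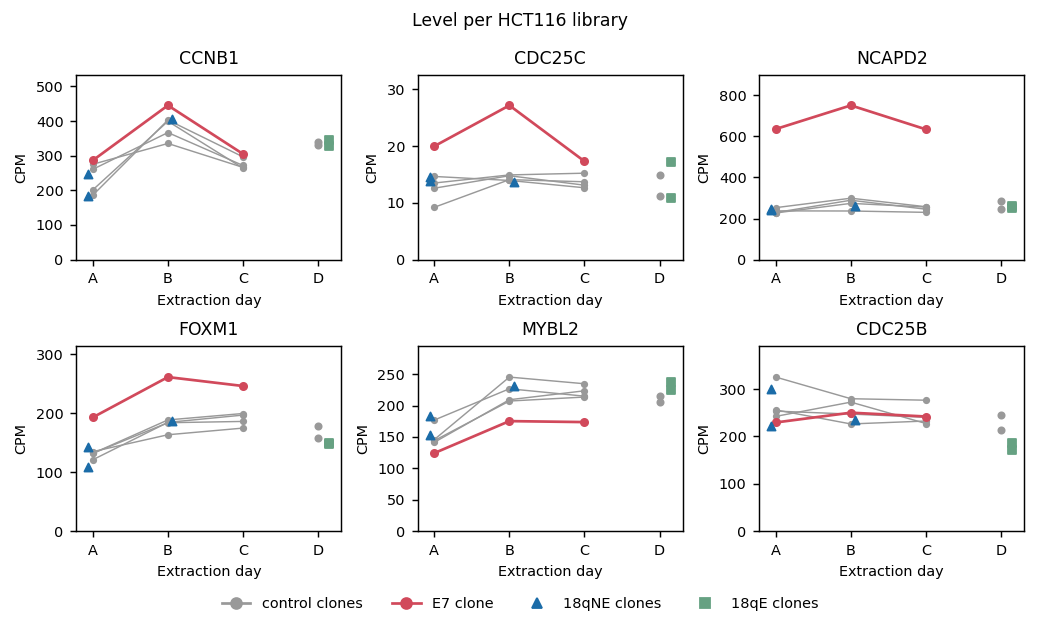
CPM of 6 genes in each HCT116 library by extraction day, with lines joining days of 1 clone. CCNB1 peaks on day B in every clone, NCAPD2 is at 634 to 751 CPM in the E7 clone only, MYBL2 is lowest in the E7 clone on days A to C, and CDC25B in clone 3 is the highest of its day.

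Other cell cycle lists in the E7 clone are read against the same 7.58% of all genes called higher and 6.32% lower. Of 29 further G2/M and DREAM regulators 0 were higher and 2 lower, LIN9, a subunit of the MuvB core, at -0.75 and the checkpoint kinase CHEK2 at -0.41. Among 34 further kinetochore and checkpoint genes 3 were higher, CENPI at 0.58, HJURP at 0.47 and CENPL at 0.43. The G1/S and replication list had 1 higher, the cyclin CCND1 at 0.60, and 1 lower, MCM6 at -0.42, of 47. Within the anaphase promoting complex list CDC27 was higher (0.38) and ANAPC13 lower (-0.38) of 17. Of 16 CDK inhibitors and arrest genes 4 were higher and none lower: PLK2 at 1.27, CDKN2D at 0.90, CDKN2C at 0.78 and CDKN1B, the inhibitor p27, at 0.61. Housekeeping genes had 3 higher and 1 lower of 15, with GAPDH at 0.71. The housekeeping sum was 15320 to 16470 CPM in the E7 libraries and 12740 to 14230 CPM in the controls, without overlap. Summed HEK293 markers were 88.98 to 98.77 CPM against 152.7 to 183.5 CPM, also without overlap, with 0 higher and 2 lower of 6 tested, DPYSL3 (-3.78) and GATA3 (-2.59). Summed epithelial markers overlapped, at 4247 to 5797 CPM against 3838 to 6459 CPM, with 1 higher and 2 lower of 8 tested. Fibroblast sums were 12.27 to 22.61 CPM against 17.83 to 30.3 CPM, and leukocyte sums 2.089 to 4.104 CPM against 2.33 to 5.469 CPM. The part of these genes in the mitotic values was not tested.

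The 18qNE deletion clones showed no called difference: 0 of 48 genes passed against the control clones, where 0% of 15524 genes were called (505 at an unadjusted p below 0.05, none of them among the 48; DESeq2 called 13 genes and none of the 48). The median was 0.01. CCNB1 was at 185 and 249 CPM in clones 1 and 3 on day A and at 405 CPM in clone 2 on day B, against 186 to 275 and 335 to 403 CPM in the controls of those days. Its change was -0.08, with an interval of -0.57 to 0.42. PLK1 was at 149, 167 and 301 CPM for clones 1, 3 and 2, following the days. Intervals were -0.35 to 0.32 for CDK1, -0.46 to 0.37 for CDC20, -0.41 to 0.60 for AURKA, -0.41 to 0.31 for FOXM1, -0.16 to 0.36 for MKI67 and -0.28 to 0.32 for TOP2A. The clones' days are not balanced, and the median moved with the libraries used: 0.08 on day A alone, -0.17 without clone 2, the only one of day B, 0.12 without clone 1 and 0.06 without clone 3, with 0 calls each time.

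The 18qE deletion clones also had 0 of 48 calls against day D controls, where 0% of 15261 genes were called (391 at an unadjusted p below 0.05, none of the 48; DESeq2 called 19 genes and none of the 48). The median was 0.05. CCNB1 was at 328 and 346 CPM against 329.8 and 340.5 CPM, and CDK1 at 148 and 169 against 155 and 158 CPM. Intervals were -0.29 to 0.37 for CCNB1, -0.28 to 0.37 for CDK1, -0.33 to 0.51 for PLK1, -0.37 to 0.45 for CDC20, -0.28 to 0.40 for AURKA, -0.48 to 0.20 for FOXM1, -0.34 to 0.54 for MKI67 and -0.24 to 0.64 for TOP2A. Both 18qE libraries lay above both controls for 5 genes and below for 10, against 9.94% and 16.8% of 13355 expressed genes.

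In HEK293, 0 of 48 genes passed between E7 and control libraries, where 0.0254% of 11806 genes were called (0.00847% higher, 0.0169% lower). DESeq2 called 1 higher and 1 lower, where it called 3.92% of all genes. With no adjustment, 1487 genes had a p below 0.05, and 4 were among the 48: ANLN, UBE2C, PLK1 and FOXM1. ANLN measured 277 and 278 CPM with the deletion against 148 and 129.9 CPM in the controls (0.93 ± 0.179, adjusted p = 0.2187). UBE2C was at 43.7 and 50.4 CPM against 70.3 and 123 CPM (-1.12 ± 0.333, adjusted p = 0.2969). PLK1 was at 151 and 173 CPM against 228 and 229 CPM (-0.56 ± 0.19), and FOXM1 at 173 and 194 CPM against 136 and 104 CPM (0.56 ± 0.203). Groups did not overlap for these 4. CCNB1 was at 261 and 280.2 CPM against 238 and 298 CPM, CDK1 at 256 and 262 against 244 and 227, CDC20 at 213 and 232 against 202 and 264, and AURKA at 94.3 and 104 against 111 and 136. Their log2 changes were -0.06, 0.07, -0.14 and -0.39, and the interval for CCNB1 ran from -0.62 to 0.50. Both E7 libraries were above both controls for 24 genes and below for 5, against 28.8% and 20.9% of 11631 expressed genes. Summed HEK293 markers were 424.6 to 429.3 CPM in the E7 libraries and 263 to 308.1 CPM in the controls, without overlap. The 5 epithelial markers in these files summed to 1018 to 1163 against 446.9 to 730.7 CPM, also without overlap. Housekeeping sums overlapped, at 9248 to 9615 against 8389 to 11730 CPM. The part of these genes in the mitotic values was not tested.

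The 2 HEK293 control libraries lay further apart than the 2 E7 libraries. MKI67 was at 737 CPM in control 1 and 328 in control 2, and at 840.4 and 819.7 in the E7 libraries. TOP2A measured 1140 and 641 CPM in controls 1 and 2 and 1092 and 1114 with the deletion. Across the 48 genes the ratio of control 2 to control 1 ran from 0.444 for MKI67, 0.527 for ASPM, 0.563 for TOP2A and 0.588 for CENPF to 1.39 for MYBL2, 1.51 for PTTG1 and 1.75 for UBE2C. The ratio of the 2 E7 libraries stayed between 0.884 and 1.24. Left out in turn, the controls set the result: without control 1, 17 genes were higher and 10 lower in a fit that called 52.5% of all genes, and without control 2, 1 was higher and 2 lower with 16.2% called. In such a fit the lone control is assumed to vary like the E7 pair, which may be 1 clone. MKI67 was at 1.23 (adjusted p = 0.00019) without control 1, and PLK1 at -0.61 and -0.52 without control 1 and 2 (adjusted p = 0.00362 and 0.0223).

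**Figure D5:**
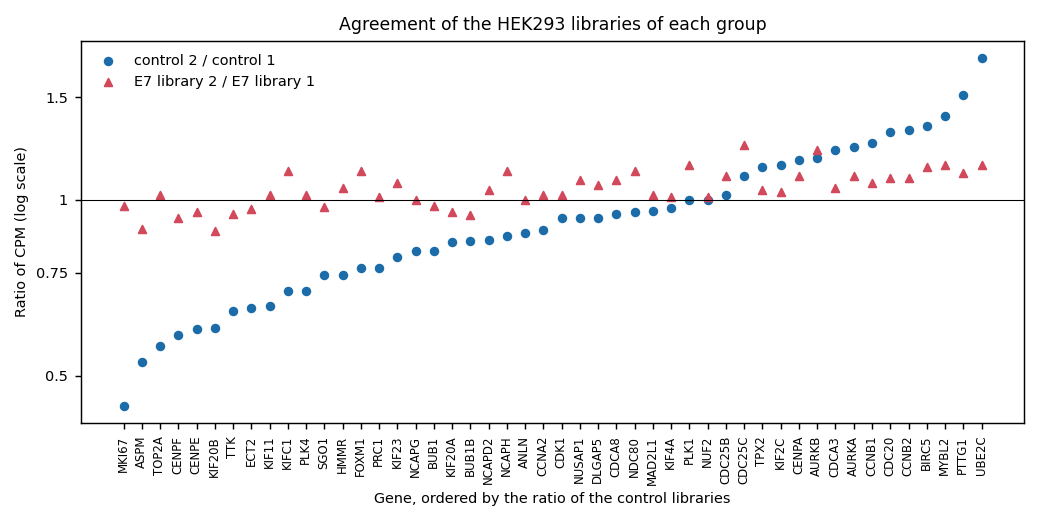
Ratio of CPM (log axis) between the 2 HEK293 control libraries (circles) and between the 2 HEK293 E7 libraries (triangles) for each of the 48 genes, ordered by the control ratio. Circles run from 0.444 for MKI67 to 1.75 for UBE2C, while triangles stay between 0.884 and 1.24.

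The difference between the E7 changes of the 2 lines was tested directly. At an unadjusted p below 0.05 there were 12 of the 48, given without the share of all genes at that cut. After adjustment only NCAPD2 of the 48 passed (3.38% of 11849 genes called, 1.45% higher and 1.93% lower). It was at 361 and 375 CPM in the HEK293 E7 libraries against 353 and 302 CPM in the controls, and the change was lower in HEK293 than in HCT116 by 1.31 on the log2 scale (-1.31 ± 0.163, adjusted p = 0.01095). It did not pass without either HEK293 E7 library (adjusted p = 0.0686 and 0.0564). For the fixed set of 8 genes the intervals of the difference were -0.78 to 0.17 for CCNB1, -1.04 to -0.21 for PLK1 (adjusted p = 0.1112), -1.001 to -0.05 for AURKA, -0.42 to 0.29 for CDK1, -0.64 to 0.49 for CDC20, -0.38 to 0.51 for FOXM1, -0.56 to 1.44 for MKI67 and -0.82 to 0.75 for TOP2A. The median over the 48 was -0.02.

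Controls of the 2 lines were also compared gene by gene, where line and day cannot be told apart. Of the 48, 21 were lower and 5 higher, where 57% of the 11805 shared genes were called (26% lower, 31.1% higher), and the median was -0.31 against 0.05 over all genes. Both cytokinesis genes were lower, ANLN by 1.15 (-1.15 ± 0.117, adjusted p = 0.0001902) and ECT2 by 1.09. The CPM totals cover 57820 genes in HCT116 and 11887 in HEK293, so CPM of the 2 lines are not on the same scale. The log2 changes use the shared genes alone. ANLN was at 148 and 129.9 CPM in HEK293 and at 194 to 308.5 CPM in the 12 HCT116 control libraries, with no overlap. NUSAP1, a microtubule binder of the spindle, was at 149.7 and 139.6 CPM against 159.97 to 275 CPM (-0.87 ± 0.0909, adjusted p = 0.0002215). NCAPG was at 128 and 104 CPM against 131 to 227 CPM (-0.93 ± 0.112). CDC20 was at 202 and 264 CPM against 269 to 579.7 CPM (-1.005 ± 0.159, adjusted p = 0.001517), and FOXM1 was at -0.70 ± 0.117 (adjusted p = 0.00197). MKI67 had the largest negative value, -1.20 ± 0.283 (adjusted p = 0.009309), and was at -0.76 without control 2 and -1.84 without control 1.

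The 5 higher genes in HEK293 were CDC25C (1.01 ± 0.126), TOP2A (0.95 ± 0.206), AURKB (0.49), MYBL2 (0.49) and KIF4A (0.26). CDC25C was at 30.3 and 33.4 CPM against 9.22 to 15.2 CPM, and TOP2A at 1140 and 641 CPM against 284 to 503 CPM. Neither overlapped, though CPM of the 2 lines are not on the same scale. The remaining lower calls were TPX2, BUB1B, CDC25B, PLK4, CCNA2, NCAPH, CDCA8, KIF2C, KIF20A, KIFC1, HMMR, BUB1, UBE2C and CENPA between -0.35 and -0.98. CCNB1 (-0.35, adjusted p = 0.0545), AURKA (-0.27), PLK1 (-0.19) and CDK1 (-0.13) did not pass. Against day D controls instead, 12 were lower and 2 higher (33.9% of genes called). Other lists split both ways: of 29 further G2/M and DREAM regulators 13 were lower and 7 higher, with BORA at -1.87 and LIN37 at 1.92, and of 15 tested CDK inhibitors and arrest genes 8 were higher and 4 lower, with CDKN2C at 2.41.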

How the data were processed

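Gene counts of 26 RNA-seq libraries were used as deposited, in raw counts per Ensembl gene. Per the submitters' processing notes the authors' tools included TopHat2, HTSeq 0.6.1, Partek 3, CASAVA and bcl2fastq, with BWA 0.6.2 and bedtools also listed and hg19 as build, without stated roles. Whether counting used strand was not given in the sources used here, so reads of a gene and an antisense partner cannot be told apart. Symbols matched 39538 of 57820 IDs in the HCT116 files and 11218 of 11887 in the HEK293 files. ChIP-seq and 4C-seq samples were not analysed here.

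Tests used edgeR 4.0.16 in R 4.3.3 (quasi-likelihood F test, TMM, filterByExpr with a minimum count of 10, Benjamini-Hochberg over all genes tested, threshold 0.05). For E7 and 18qNE, counts were summed over days per clone; day fits had a clone term and clone fits a day term. Log2 CPM of single libraries used a prior count of 2. Alternatives used limma 3.58.1 and DESeq2 1.42.0, other size factors, no filter, left-out libraries or days, and replicate blocks. The fits for the deletions and for day B against day A were also run on simulated data. Of 100 genes changed by 1 on the log2 scale, 94% were recovered for day B against day A and 85% for 18qNE. The share was 79% for E7 in HCT116, 49% for 18qE and 21% for E7 in HEK293. At a log2 change of 2 it was 97% to 100% in these fits. The 0 calls for 18qE and for E7 in HEK293 can therefore miss changes of 1. Changes below 1 were not simulated, so the shares do not say how many of those any fit, 18qNE included, would miss. The members and gene lists were chosen with earlier results of these data known. Named were members that passed (up to 24 by adjusted p) and 8 fixed genes (CCNB1, CDK1, PLK1, CDC20, AURKA, FOXM1, MKI67 and TOP2A), and from other lists the 4 smallest adjusted p; other members named, as the ends of a range or for contrast, were picked after their values were seen.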

Additional observations from a re-analysis of the deposited data

Results flagged for a closer look

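Across the 12 control libraries, CDC25B averaged 293.8 CPM over days A to C in control clone 3, far from the other 3 clones, which lay between 238 and 247 CPM. MKI67 averaged 1139 CPM in control clone 2, apart from the others at 1001 to 1017 CPM. These were 2 of 51 groups of 4 checked this way, and chance alone sets about 1 in 20 such groups apart.

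The difference of NCAPD2 between E7 and control libraries was not the same in the 2 lines. It was lower by 1.31 on the log2 scale in HEK293 than in HCT116 (-1.31, edgeR adjusted p = 0.01095, in a test of the difference itself). In HCT116 it rests on 1 clone, in which 115 of 212 tested genes of the chromosome 12 stretch around NCAPD2 were higher and 2 lower. Deletion and clone cannot be told apart there. Without either HEK293 E7 library the value was -1.28 and -1.35, and the call did not hold.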

How the results depend on the processing

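Single genes were followed through the alternatives only for the calls of each main fit (up to 24) and the 8 fixed genes. None of their calls changed sign, and the other genes were not checked. The direction of the day D calls turned with the reference day (17 higher and 0 lower against day A, 0 and 8 against day B). The 18qNE median went from 0.01 to -0.17 without 18qNE clone 2. Leaving out 1 library, clone or day at a time, the number of the 48 genes called ran from 4 to 26 for E7 in HCT116, 34 to 45 for day B and 27 to 40 for day C against day A, 0 to 1 for day C against B, 0 to 6 for clone 3, 0 to 11 for clone 4, 0 to 27 for E7 in HEK293, 33 to 36 for HEK293 against HCT116 controls and 0 to 24 for the difference of E7 changes. It stayed at 0 for 18qNE, 18qE, clones 1 and 2 and the day response of the E7 clone. The E7 count in HCT116 was 1 on day A alone, 4 on day B alone and 1 with 18qNE clones as reference. DESeq2 called 2 for E7 in HEK293 (3.92% of all genes called), 2 for day C against B (0.454%), 1 in clone 4 (5.04%) and 6 for the difference of E7 changes (9.92%). With no filter the counts were 5 for day C against B (0.843% of all genes called), 1 in clone 2 (1.24%), 2 in clone 4 (3.58%) and 6 on day D (6.32%). Without the day term clone 3 had 0. Day D had 17, 8 and 7 calls against days A, B and C alone, and HEK293 against day D controls had 14. The cause was not tested.

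The labels do not say that shared replicate numbers pair samples, and the 18qNE deviations do not pair; with 2 pairs each, 18qE and HEK293 could not be settled. Deviations of same-numbered libraries correlated at 0.0675 for 18qE, 0.343 for HEK293 and -0.206 to 0.0847 for 18qNE. With a replicate block the counts were 0 for 18qNE, 0 for 18qE and 2 for E7 in HEK293, where all genes called went from 3 (0.0254%) to 670 (5.68%). For E7 in HCT116 the count was 20 where single libraries were the replicates and day the replicate block. That fit takes days of 1 clone as replicates and called 34.8% of all genes. Depth differed between days, and whether it limits these counts was not tested.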
